A study of Homo sapiens with 7 samples.

Results

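The mitochondrial ribosomal protein genes (MRP genes) were taken as the genes of the deposited differential expression tables whose symbol is MRPL or MRPS followed by a number and, in some, a letter from A to C. This gave 77 of the 10452 genes tested, of which 50 encode proteins of the large subunit and 26 proteins of the small subunit of the mitochondrial ribosome, while MRPS36 is now known as KGD4, a subunit of a dehydrogenase complex. MRPS18A and MRPS30 sit in the large subunit in spite of their names, and were counted there. RNA was sequenced from 7 lines of K562, a cell line long established from chronic myeloid leukemia and positive for BCR::ABL1, with 1 library per line. The controls were a drug naive line and a line grown in the vehicle DMSO, and the dasatinib resistant (DasR) lines had been grown in stepwise rising concentrations of dasatinib, a tyrosine kinase inhibitor, up to 10, 15 and 25 nM (early stage) or 50 and 200 nM (late stage). All DasR lines descend from K562 cells. The study describes them as samples taken in sequence while the dose was raised, so they may not be independent cultures. No line was sequenced more than once. The study defined the stage groups from the clustering of the same libraries, so lines were put together because they were alike. The spread within a group, which covers both line and dose, may therefore be too small and the FDR values too low. Total counts ranged from 20059656 in the 25 nM line to 27844799 in the 15 nM line. Levels are given as CPM, the counts of a gene scaled to the depth of its library (TMM scaling, over the genes tested). A count of 3 in the whole library came to between 0.108 and 0.150 CPM, a floor that covers counting error only.

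Mitochondria carry their own ribosome, which makes the few proteins of the respiratory chain that the mitochondrial genome encodes. Its RNA comes from the mitochondrial genome, while its proteins are encoded in the nucleus, made in the cytosol and imported. Some of them have a homolog in the bacterial ribosome and others are found only in mitochondrial ribosomes. Leukemia cells that persist under kinase inhibitors have been described as relying on mitochondrial respiration.

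The members lay on 21 chromosomes, with no more than 8 on any of them. GENCODE's annotation of GRCh37, the build of hg19, placed all 77 on the chromosome given in the deposited tables. For 69 of them RefSeq (GRCh38.p14) held a promoter window of 300 bases that ends 50 bases after the start of the gene. On GRCh37, MRPS12 lies at chr19:39421584-39423808 and MRPS7 at chr17:73257755-73262457 (both plus strand), MRPL27 at chr17:48445218-48450568 (minus strand) and MRPL45 at chr17:36452989-36479100 (plus strand). Promoters are shown for MRPS12, MRPL27 and MRPS7, which are among the members with the largest increases, and for MRPL45, which was lower in both stages. On GRCh38.p14 the windows are chr19:38930694-38930993 on the plus strand, chr17:50373135-50373434 on the minus strand, chr17:75261629-75261928 on the plus strand and chr17:38296918-38297217 on the plus strand. Each is written 5′ to 3′ along its gene, and capitals mark the letters that were searched on both strands, namely CCGGAAG (ETS factors such as GABPA), AAGATGGC (YY1), CGCATGCG (NRF1), CACGTG (the E-box of MYC and MAX) and CCAAT (NF-Y).
MRPS12: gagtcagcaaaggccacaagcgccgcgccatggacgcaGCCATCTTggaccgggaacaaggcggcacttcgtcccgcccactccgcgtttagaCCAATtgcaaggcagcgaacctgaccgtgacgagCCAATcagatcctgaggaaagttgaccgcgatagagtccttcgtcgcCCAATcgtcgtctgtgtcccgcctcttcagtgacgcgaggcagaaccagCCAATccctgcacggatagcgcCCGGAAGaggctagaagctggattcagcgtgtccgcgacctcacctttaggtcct
MRPL27: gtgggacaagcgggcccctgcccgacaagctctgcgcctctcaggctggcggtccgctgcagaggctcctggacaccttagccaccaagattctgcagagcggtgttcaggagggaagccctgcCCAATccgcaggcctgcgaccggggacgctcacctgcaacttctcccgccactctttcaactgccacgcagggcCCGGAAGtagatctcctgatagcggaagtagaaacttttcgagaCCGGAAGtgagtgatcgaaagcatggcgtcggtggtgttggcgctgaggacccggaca
MRPS7: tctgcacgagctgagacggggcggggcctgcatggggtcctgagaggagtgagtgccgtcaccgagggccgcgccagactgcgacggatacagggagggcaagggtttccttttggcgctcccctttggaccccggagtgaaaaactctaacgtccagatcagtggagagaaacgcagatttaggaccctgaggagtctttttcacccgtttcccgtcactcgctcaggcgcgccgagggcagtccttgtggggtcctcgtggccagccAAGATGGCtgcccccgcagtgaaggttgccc
MRPL45: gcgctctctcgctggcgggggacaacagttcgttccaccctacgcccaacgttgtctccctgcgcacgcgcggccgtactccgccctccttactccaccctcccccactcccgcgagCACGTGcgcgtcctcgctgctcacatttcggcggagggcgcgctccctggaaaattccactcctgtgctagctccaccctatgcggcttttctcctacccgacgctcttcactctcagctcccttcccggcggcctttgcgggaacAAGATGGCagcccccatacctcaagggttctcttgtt

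Places are counted from the start of the gene, with negative numbers before it. In the MRPS12 window, the ETS letters began at -5, the YY1 letters stood at -212 on the opposite strand, and CCAAT was found at 4 places from -157 to -27. MRPL27 held the ETS letters at -52 and -8 and CCAAT at -126. The window of MRPS17 is not shown, although this gene rose more than MRPS7 in the early stage. Of the letters searched it held only CCAAT, at -22. MRPS7 and MRPL45 each held the YY1 letters after the start, at 20 and 14, and MRPL45 an E-box at -133. Over the 69 windows, the YY1 letters were present in 20 (29.0%), against 6.25% of the windows of 8339 genes tested and 3.03% of all 27305 windows. Of these 20 members, 15 held them in the gene's own orientation within the 50 bases after the start, a share of 21.7% of the members and 3.71% of the genes tested. The ETS letters were present in 28 members (40.6%), against 22% of the genes tested and 10.7% of all windows. For NRF1, the exact letters were found in 3 members (4.35%), 4.37% of the genes tested and 2.19% of all windows. The E-box stood in 10.1% of members, 10.9% of the genes tested and 7.43% of all windows, and CCAAT in 29.0%, 37.5% and 35.7%. The last 3 letters of CCGGAAG are the first 3 of AAGATGGC, so that both can share bases. A match describes the sequence and does not show that a factor binds there.

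The first comparison asked how the early stage DasR lines differed from the controls. Against the controls, 11 of the 77 MRP genes rose and 2 fell in the early stage lines at an FDR under 0.005 (edgeR's quasi-likelihood test, adjusted by the Benjamini-Hochberg method over all 10452 genes). This is 14.3% higher and 2.60% lower, where 7.92% of all genes tested were higher and 10.1% lower. In either direction together the share called was 16.9% of the members and 18% of all genes. The increases came to between 1.67-fold and 2.63-fold. The median log2 fold change of the members was 0.28, against 0.00 for all genes tested, and it was above 0 for 61 of the 77. All 3 early stage lines lay above both controls for 42 members (54.5%, against 35.4% of all genes) and below both for 10 (13.0%, against 35.2%).

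**Figure D1:**
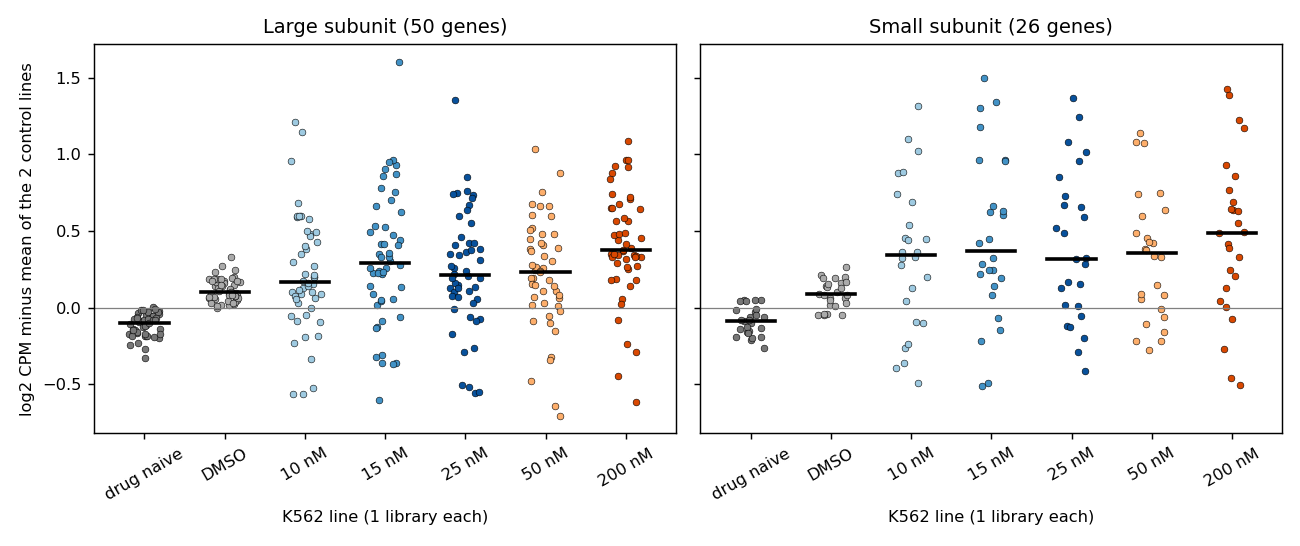
Level of each MRP gene in each line, as log2 CPM minus the mean of the 2 controls, for the large subunit (50 genes, left) and the small subunit (26 genes, right); each point is a gene, bars are medians and MRPS36 is not shown. The drug naive line lies lowest and the DMSO line above it (medians -0.10 and 0.10 in the large subunit). The medians of the 5 DasR lines lie above both (0.16 in the 10 nM line for the large subunit), with the 200 nM line highest in both panels.

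In the small subunit, 6 genes rose. MRPS12 encodes the homolog of bacterial S12, a protein of the decoding center. It stood at 15.8 and 18.2 CPM in the drug naive and DMSO lines, at 42.3, 48.1 and 43.8 CPM in the 10, 15 and 25 nM lines, and at 35.8 and 45.6 CPM in the 50 and 200 nM lines. All 5 DasR lines were thus well above both controls, with a log2 fold change of 1.39 ± 0.14 (SE, FDR = 0.000622) in the early stage. MRPS17, the homolog of bacterial S17, was measured at 9.25 and 11.5 CPM in the controls, 22.1, 26.2 and 24.5 CPM in early stage lines and 21.9 and 24.2 CPM in late stage lines. Its 5 DasR lines did not overlap the controls (log2 fold change 1.22 ± 0.15, FDR = 0.00109). MRPS7, which binds the RNA of the small subunit in its head, had 29.9 and 39.3 CPM in the controls, against 63.4, 84.5 and 72.5 CPM in early stage lines, with 57.4 and 65.4 CPM in late stage lines. The 15 nM line was highest, and the early stage change was 1.09 ± 0.17 on the log2 scale (FDR = 0.00256). Its exons overlap those of GGA3 and MIF4GD on the opposite strand, and whether reads were counted by strand is not given in the sources used here, so reads of these genes cannot be told apart.

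MRPS23 and MRPS26 have no bacterial homolog. MRPS23 went from 31.3 and 40.9 CPM in the controls to 65.9, 81.0 and 72.2 CPM in early stage lines (log2 fold change 1.02 ± 0.15, FDR = 0.00212), with 54.0 and 60.9 CPM in late stage lines. For MRPS26 the controls were nearly identical, at 12.5 and 12.7 CPM, and the early stage lines held 25.6, 24.5 and 24.5 CPM (log2 fold change 0.98 ± 0.17, FDR = 0.00367). This call was lost with limma voom. The late stage lines of MRPS26 spanned 19.6 to 28.4 CPM. MRPS6, the homolog of bacterial S6, had 35.1 and 33.0 CPM in the controls, 54.8, 65.9 and 61.3 CPM in early stage lines and 57.1 and 52.8 CPM in late stage lines (early stage log2 fold change 0.83 ± 0.11, FDR = 0.00132). None of the DasR lines overlapped the controls for these 3 genes. MRPS6 shares exonic bases on its own strand with SLC5A3, a transporter gene that lies within it, and MRPS17 with NIPSNAP2, so that their counts are uncertain to that extent. Exons of 39 of the 77 members overlap another protein-coding or long non-coding gene, 29 on the opposite strand and 16 on the same, among them MRPL20 (MRPL20-AS1, opposite), MRPS22 (COPB2, opposite), MRPS25 (NR2C2, opposite) and MRPS5 and MRPS28 (unnamed genes, same strand), and the same doubt holds for each.

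In the large subunit, 5 genes rose. MRPL27, whose bacterial homolog reaches into the peptidyl transferase center, had 15.3 and 15.7 CPM in the controls, 34.3, 47.1 and 39.7 CPM in early stage lines and 28.4 and 30.2 CPM in late stage lines. Every early stage line was above every late stage line, and the early stage change was 1.38 ± 0.15 on the log2 scale (FDR = 0.000765). MRPL50, a protein found only in mitochondrial ribosomes, went from 19.6 and 22.6 CPM to 40.9, 35.5 and 35.2 CPM in early stage lines (log2 fold change 0.82 ± 0.12, FDR = 0.00223). MRPL20, an assembly protein of the large subunit in bacteria, stood at 43.9 and 50.2 CPM in both controls, against 71.2, 90.9 and 84.7 CPM in early stage lines (log2 fold change 0.81 ± 0.13, FDR = 0.00266). MRPL14 and MRPL36, which also have bacterial homologs, changed by 0.77 ± 0.13 and 0.74 ± 0.13 on the log2 scale. Of the 30 large subunit genes listed as having a bacterial counterpart, 4 rose and none fell, and their median log2 fold change was 0.26. Among the 16 such genes of the small subunit 4 rose, and the median was 0.39. Of the 21 large subunit genes listed as specific to mitochondria, MRPL58 (deposited as ICT1) included, 1 rose and 1 fell, with a median of 0.22, and of the 10 such small subunit genes 2 rose and 1 fell, with a median of 0.23. MRPS18A and MRPS18B were listed as specific to mitochondria for their place in the ribosome, although their sequences are related to bacterial S18. With 7.92% of all genes higher and 10.1% lower, nothing is read from counts this small.

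The 2 genes that fell were MRPL45 and MRPS35. MRPL45 lies at the exit of the large subunit and holds the ribosome to the inner mitochondrial membrane. Its controls were at 66.0 and 68.7 CPM, its early stage lines at 46.8, 44.2 and 45.7 CPM and its late stage lines at 43.1 and 43.9 CPM. The spread within each group was small, and the early stage change was -0.56 ± 0.08 on the log2 scale (FDR = 0.00177). A pseudogene, MRPL45P2, was counted at 8.17 to 12.3 CPM over the 7 lines, and reads could be split between both genes. MRPS35, a small subunit protein found only in mitochondria, stood at 108.3 and 116.0 CPM in both controls, against 79.6, 78.5 and 84.2 CPM in early stage lines (log2 fold change -0.47 ± 0.09, FDR = 0.00455). This call was lost with library totals only (FDR = 0.00701), upper quartile scaling (0.00564), a limit of 1 CPM (0.00644) and no filter (0.00715). Its late stage lines had 96.1 and 106.5 CPM, just below the controls. All 5 DasR lines were below both controls for 5 members, MRPL10, MRPL45, MRPL48, MRPL53 and MRPS35, and MRPL10, MRPL48 and MRPL53 are named here after their values were seen. MRPL10, the base of the stalk of the large subunit, had a log2 fold change of -0.48 ± 0.11 (FDR = 0.0116), which did not pass.

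Leaving out either control line removed every one of the 13 early stage calls among the 76 members then tested, and over all genes the calls fell from 1881 to 187 without the drug naive line and to 461 without the DMSO line. In these 2 fits the control group was 1 library, which was assumed to vary like the other groups, so that a smaller design and the choice of control cannot be told apart. Leaving out the 25 nM line left 2 calls (2.6%, against 5.12% of all genes) and leaving out the 15 nM line left 4 (5.19%, against 8.46%). MRPL36 was called in none of the 7 fits that left out 1 library (lowest FDR 0.00503). The median log2 fold change of the members was then between 0.18 and 0.35 in each of the 7 fits that left out 1 library.

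**Figure D2:**
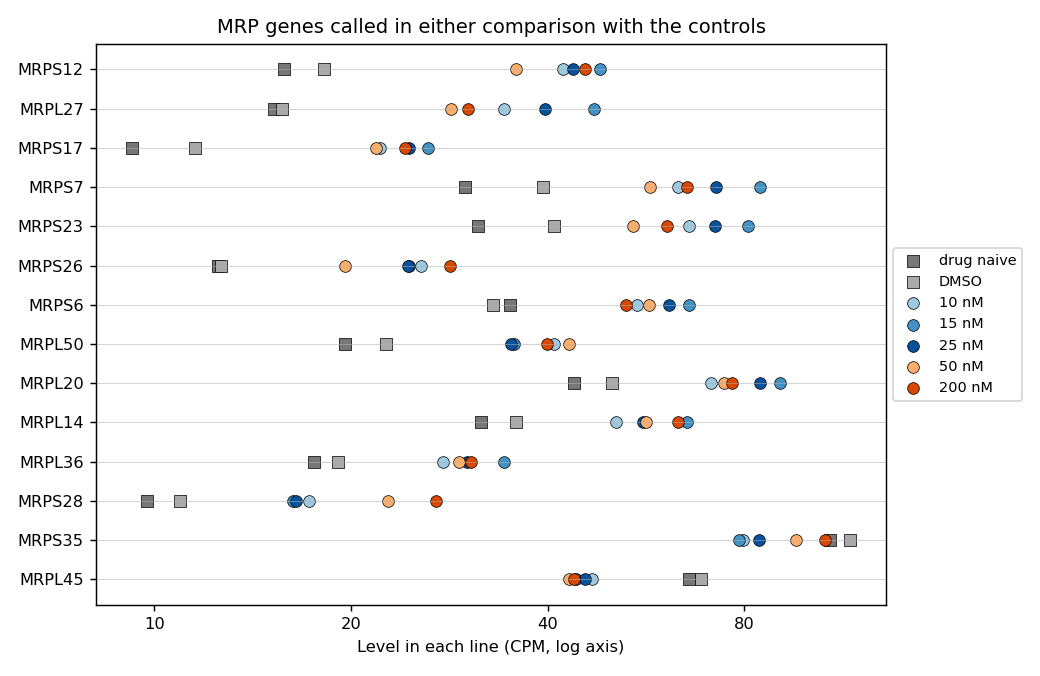
Level in CPM (log axis) of the 14 MRP genes called in either comparison with the controls, in each line (squares, control lines; blue circles, early stage; orange circles, late stage). For the 12 genes that rose, each DasR line lies right of both controls; for MRPS35 and MRPL45 each lies left of them.

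The second comparison set the late stage lines against the same 2 control lines, so that its values are not independent of those above. In the late stage lines, 4 MRP genes rose and 1 fell at an FDR under 0.005. This is 5.19% higher, close to the 3.42% of all genes tested, and 1.30% lower, where 4.56% of all genes were lower. The median log2 fold change was nevertheless 0.32, against 0.00 for all genes, and 67 of the 77 were above 0. Both late stage lines lay above both controls for 52 members (67.5%, against 33.4% of all genes) and below both for 7 (9.09%, against 35.2%). At an FDR under 0.05, 28 members were higher (36.4%, against 16.2% of all genes) and 1 lower (1.3%, against 17.6%) in the late stage. In the early stage 30 were higher at that limit (39%, against 22.6%) and 5 lower (6.49%, against 24%).

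MRPS28, the counterpart of bacterial S1, had the largest late stage change. It stood at 9.75 and 10.9 CPM in the controls, at 17.3, 16.3 and 16.5 CPM in early stage lines and at 22.8 and 27.0 CPM in late stage lines. The groups were ordered without overlap, and the change was 1.27 ± 0.15 on the log2 scale for the late stage (FDR = 0.00157) and 0.69 ± 0.14 for the early (FDR = 0.00611, not past the threshold). MRPS12 and MRPS17 rose in the late stage as well, by 1.26 ± 0.15 (FDR = 0.00187) and 1.15 ± 0.16 (FDR = 0.00300) on the log2 scale. MRPL50, with 43.2 and 39.96 CPM in late stage lines, had a change of 0.98 ± 0.13 (FDR = 0.00260). MRPL45 fell by 0.63 ± 0.09 (FDR = 0.00288). Thus 3 genes rose and 1 fell in both comparisons, 9 were called in the early stage alone and MRPS28 in the late stage alone, while 63 were called in neither. The shares were 3.9%, 1.3%, 11.7%, 1.3% and 81.8% of the members, close to the 2.87%, 3.65%, 11.5%, 1.45% and 80.5% of all genes. The late stage calls of MRPS17 and MRPL45 were lost on leaving out any 1 of the 7 libraries (lowest FDR 0.0052 and 0.00553). Every late stage call was lost on leaving out either control, the 25 nM line or the 200 nM line, and none remained when the late stage and control libraries were fitted by themselves.

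**Figure D3:**
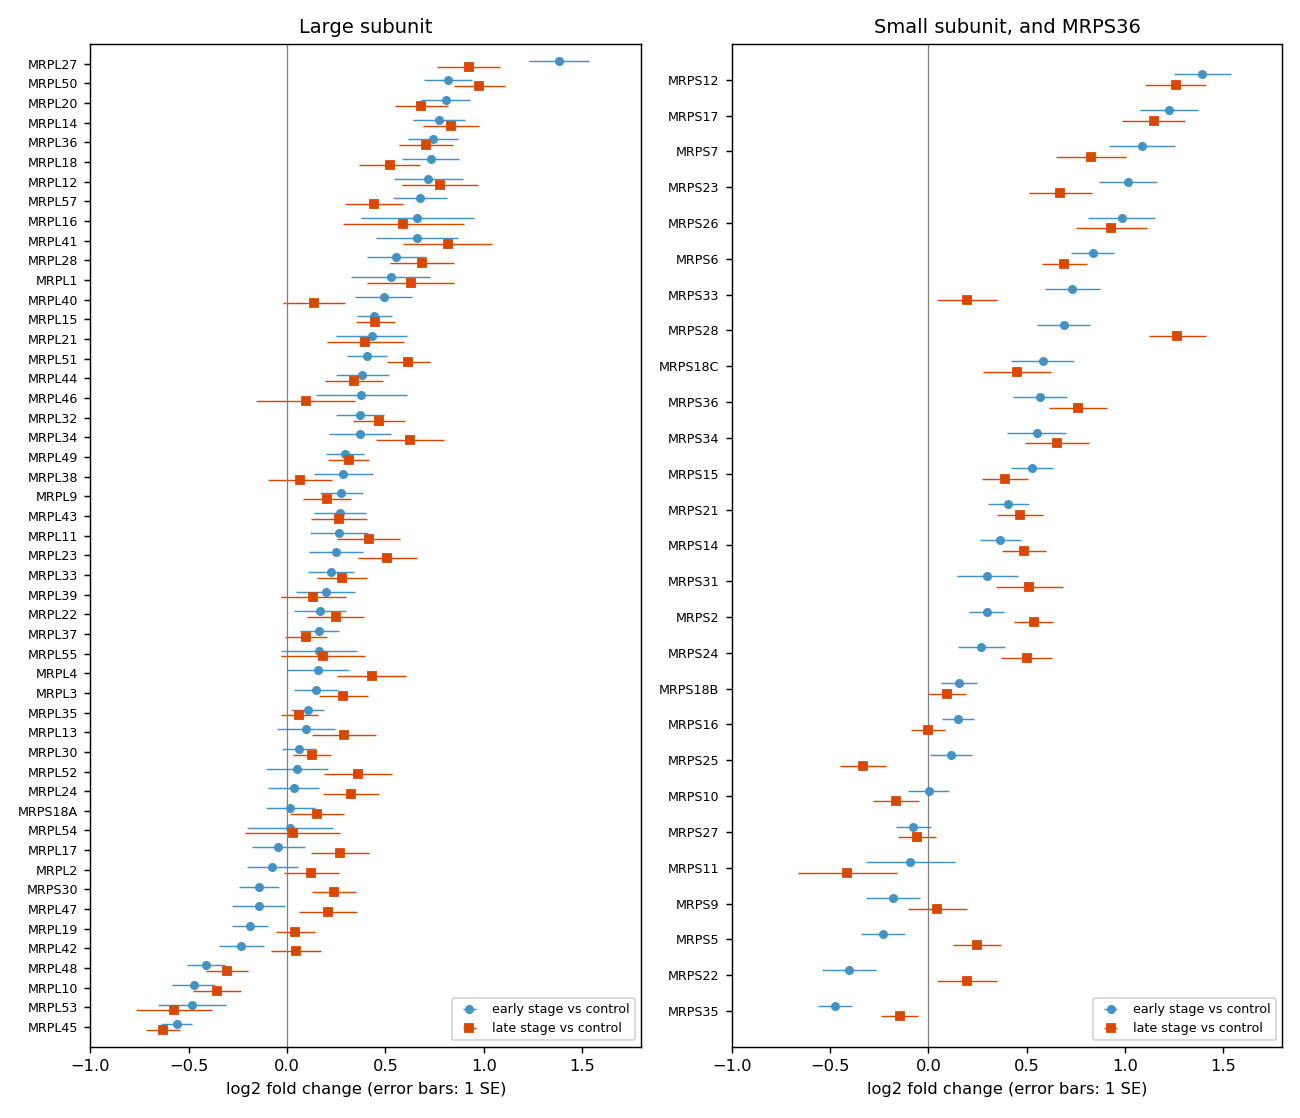
Log2 fold change of each of the 77 MRP genes in the early stage lines (blue circles) and late stage lines (orange squares) against the 2 shared control lines, with bars of 1 SE, ordered by the early stage value, for the large subunit (left) and the small subunit with MRPS36 (right). Most points lie right of 0 in both comparisons (61 and 67 of 77), with MRPL27 and MRPS12 at the top of the panels and MRPL45 and MRPS35 at the bottom.

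The third comparison asked whether the 2 stages differed from each other. Between late and early stage lines none of the MRP genes passed an FDR of 0.005 by edgeR's quasi-likelihood test, as none of all genes did (0% higher and 0% lower). At an unadjusted p under 0.05 there were 14 members, 9 higher (11.7%, against 16.4% of all genes) and 5 lower (6.49%, against 16.6%) in the late stage, so that the members were below the background in both directions, and DESeq2 called 3 (3.9%, against 10.9% of all genes) and edgeR's exact test 1 (1.3%, against 9.14%) at an FDR under 0.005. At an FDR under 0.05, 4 members (5.19%) were higher and 2 (2.60%) lower, where 6.60% and 6.10% of all genes were. The median log2 difference of the members was 0.06. The 6 genes at an FDR under 0.05 are small subunit genes, but MRPS30 of the large subunit passed as well with a limit of 1 CPM (FDR = 0.0486) and with no filter (FDR = 0.0446). Fitted to the 2 stages alone, only MRPS22 of the named genes remained under 0.05 (FDR = 0.0399). The smallest FDR was that of MRPS28, whose levels are given above, with a late minus early difference of 0.58 ± 0.13 (FDR = 0.0331).

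MRPS5, MRPS22 and MRPS35 were the other members higher in the late stage at an FDR under 0.05. MRPS22, a mitochondria-specific protein, had 68.3 and 89.2 CPM in the controls, 59.4, 55.4 and 63.9 CPM in early stage lines and 82.5 and 97.9 CPM in late stage lines. Its early stage lines were below both other groups, while the late stage lines overlapped the controls (log2 difference 0.60 ± 0.14, FDR = 0.0355). MRPS5, whose bacterial homolog lines the entry of the mRNA channel, had 68.6 and 76.8 CPM in the controls, 60.3, 62.3 and 63.1 CPM in early stage lines and 77.3 and 95.1 CPM in late stage lines, so that its 3 groups did not overlap (log2 difference 0.48 ± 0.11, FDR = 0.0350). MRPS35 differed by 0.33 ± 0.09 (FDR = 0.0495), which was over 0.05 with library totals only (0.0591), upper quartile scaling (0.0558), DESeq2 size factors (0.0501), limma voom (0.0517) and no filter (0.0517). MRPS30, a large subunit protein named for the small one, had 70.2 and 78.8 CPM in the controls, 63.3, 67.9 and 71.2 CPM in early stage lines and 82.3 and 93.4 CPM in late stage lines, and missed that limit (log2 difference 0.38 ± 0.10, FDR = 0.0507).

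MRPS25 and MRPS33 were lower in the late stage at an FDR under 0.05. MRPS25 had 142.6 and 155.7 CPM in the controls, 171.0, 164.0 and 150.3 CPM in early stage lines and 128.1 and 108.5 CPM in late stage lines (log2 difference -0.45 ± 0.11, FDR = 0.0387). For MRPS33, the early stage lines stood apart at 44.95, 60.4 and 48.6 CPM, above the controls at 32.0 and 29.8 CPM and the late stage lines at 34.2 and 36.6 CPM (log2 difference -0.54 ± 0.14, FDR = 0.0490). MRPS33 was over 0.05 with library totals only (FDR = 0.0519), limma voom (0.0514), a limit of 1 CPM (0.0583) and no filter (0.0566). Among the other members with the smallest p downward, MRPL27 differed by -0.46 ± 0.15 (FDR = 0.0785) and MRPL40 by -0.36 ± 0.14 (FDR = 0.137). The level of MRPL40 was lower at each higher dose, with 105.1, 96.4, 91.8, 87.5 and 65.4 CPM from 10 to 200 nM, against 63.8 and 75.3 CPM in the controls, and this order was not tested.

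The 2 controls were themselves not alike in the level of the MRP genes. The DMSO line was above the drug naive line for 70 of 77 members (90.9%), against 51.8% of all genes tested, with a median log2 difference of 0.18 for the members and 0.01 for all genes. The drug naive line was the lowest of the 7 lines for 53 members (68.8%, against 24.3% of all genes). Summed over the 77 genes, the level was 3603 CPM in the drug naive line and 4102 CPM in the DMSO line. It was 4429, 4693 and 4488 CPM in the 10, 15 and 25 nM lines and 4395 and 4861 CPM in the 50 and 200 nM lines, so that every DasR line was above both controls. With only the drug naive line as control the median log2 fold change was 0.35 (early) and 0.46 (late), and with only the DMSO line 0.18 and 0.21.

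Within a stage, lines differed as well. The 200 nM line was above the 50 nM line for 67 members (87.0%, against 49.6% of all genes) and highest of all 7 lines for 36 (46.8%, against 19.4%). The 15 nM line was highest for 23 members (29.9%, against 19.5%). The 200 nM line was above both controls for 65 members (84.4%, against 41.9% of all genes) and the 10 nM line for 48 (62.3%, against 43.4%). All 5 DasR lines were above both controls for 39 members (50.6%), where 24.4% of all genes were, and below both for 5 (6.49%, against 25.1%). With 1 library per line these shares describe the libraries, and a difference between lines cannot be told apart from a difference between library preparations.

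Levels per length, as CPM per kilobase of the gene length in the deposited table, differed widely between members. Averaged over the 7 lines, MRPL37 (126.0), MRPL40 (107.8) and MRPL20 (95.9) were highest, and MRPL43 (6.23), MRPL57 (8.46) and MRPL17 (8.86) lowest. MRPL37, a mitochondria-specific protein of the large subunit, was the most abundant member by CPM in every line, at 160.4 CPM in the drug naive line, 188.4 CPM in the DMSO line and 181.5 to 207.5 CPM in the DasR lines, and did not pass in any comparison. MRPL12, the stalk protein that also binds the mitochondrial RNA polymerase, had 47.2 and 62.5 CPM in the controls, 81.0, 103.6 and 86.3 CPM in early stage lines and 82.04 and 106.2 CPM in late stage lines. All 5 DasR lines were above both controls and the stages overlapped, but the early stage change of 0.72 ± 0.18 missed the threshold (FDR = 0.0145). MRPL57 had a change of 0.68 ± 0.14 (FDR = 0.00685) in the early stage, MRPL43 of 0.27 ± 0.13 and MRPL17 of -0.04 ± 0.13.

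The 3 paralogs related to bacterial S18, of which only MRPS18C was listed as its counterpart, had different values. MRPS18C, in the small subunit, stood at 17.8 and 23.8 CPM in both controls, against 28.1, 31.3 and 34.1 CPM in early stage lines (log2 fold change 0.58 ± 0.16, FDR = 0.0216). MRPS18B, also of the small subunit, stayed between 129.1 and 156.5 CPM in all 7 lines (early stage log2 fold change 0.16 ± 0.09). MRPS18A, of the large subunit, stayed between 49.3 and 66.6 CPM (0.02 ± 0.12). None of these passed the threshold in any comparison. MRPS36, which is not a ribosomal protein, stood at 17.4 and 16.2 CPM in both controls, against 24.00 to 32.1 CPM in DasR lines (early stage log2 fold change 0.57 ± 0.14, FDR = 0.0133).

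The members that rose were short genes. Of the 26 members under 1000 bases 7 rose in the early stage, of the 25 from 1000 to under 1500 bases 4 rose, and of the 26 of 1500 bases or more none rose and 2 fell. Of all genes of these lengths 6.72%, 8.62% and 7.94% rose. The median early stage log2 fold changes were 0.46, 0.37 and 0.13, while those of all genes of the same lengths were 0.05, 0.02 and 0.00. The late stage medians were 0.50, 0.45 and 0.18. These limits of length were chosen after the values were seen. When the trend of the log2 ratios with length over all genes was taken out of each library, the median of the members was 0.25 (early) and 0.29 (late), with 16 members (20.8%, against 19.6% of all genes) and 6 members (7.79%, against 9.01%) called.

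**Figure D4:**
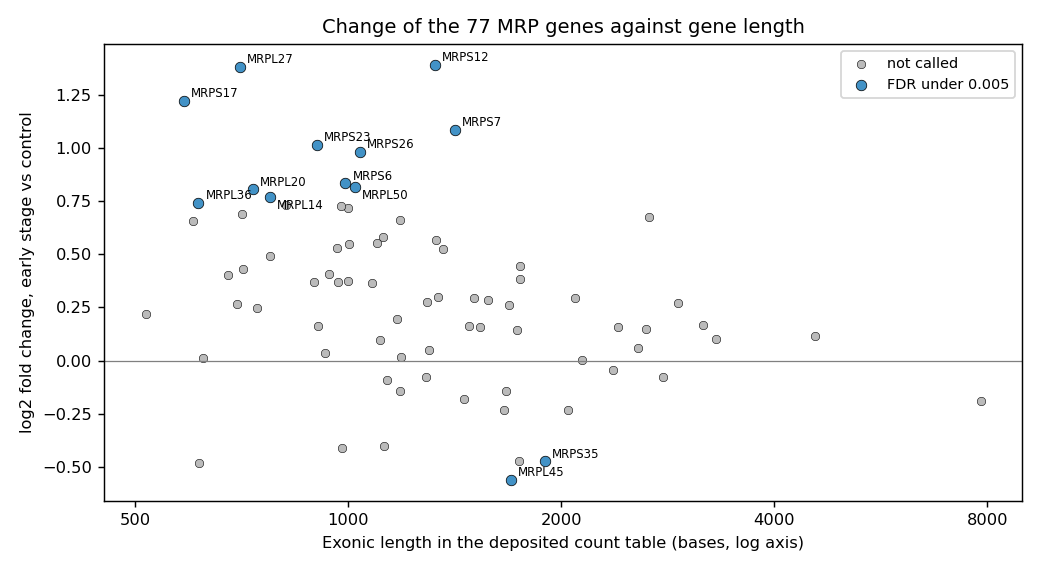
Early stage log2 fold change of the 77 MRP genes against their length in bases (log axis), with genes at an FDR under 0.005 in blue and named. The 11 genes that rose are all shorter than 1500 bases, and MRPL45 and MRPS35, which fell, are longer.

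Motifs and neighbors were compared with these changes as a description. The 20 members with the YY1 letters in their promoter window had a median early stage log2 fold change of 0.22, and the 49 without had 0.30. Members with and without the ETS letters had 0.29 (28 genes) and 0.28 (41 genes). The late stage medians were 0.24 with and 0.34 without the YY1 letters, and 0.28 with and 0.34 without the ETS letters. For 27 members another protein-coding gene started within 1000 bases in the opposite direction. Of these partners 21 were tested, with a median early stage log2 fold change of 0.23, and 3 rose, where 7.92% of all genes tested did. They were TWNK, the mitochondrial DNA helicase opposite MRPL43 (1.28, FDR = 0.000488), TCP1, a chaperonin subunit opposite MRPL18 (0.85, FDR = 0.00201), and TMEM63B opposite MRPL14 (0.84, FDR = 0.00325). Opposite MRPS12 is SARS2, the mitochondrial seryl-tRNA synthetase, at -0.07 (FDR = 0.772), and opposite MRPL27 is EME1 at -0.04 (FDR = 0.807). The partners MRPL46 and MRPS11 are both members, with values of 0.38 and -0.09.

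Other genes of the pathway were followed in lists. Of 8 genes of the mitochondrial ribosome listed for their other symbols, none passed in either comparison, where 18% (early) and 7.98% (late) of all genes did. Among them were DAP3, CHCHD1, MRPL58 (deposited as ICT1) and the insertase OXA1L, and the median early stage log2 fold change of the 8 was 0.39. MRPL57 stood in this list too and is also one of the 77. Of 25 assembly factors tested, 5 rose in the early stage and none fell, where 7.92% of all genes rose and 10.1% fell. They were MTERF3 (0.88, FDR = 0.00142), RNMTL1, now MRM3, a methyltransferase of the large ribosomal RNA (0.97, FDR = 0.00178), FASTKD2 (0.71, FDR = 0.00223), the pseudouridine synthase TRUB2 (0.84, FDR = 0.00279) and RBFA (0.69, FDR = 0.00293). In the late stage MALSU1 (1.16, FDR = 0.00230), FASTKD2 (0.75, FDR = 0.00384) and MTERF3 (0.79, FDR = 0.00446) rose, where 3.42% of all genes did.

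Among 18 translation factors tested, TSFM, the exchange factor of the mitochondrial elongation factor Tu, rose in both stages (0.92, FDR = 0.00182, and 0.90, FDR = 0.00412). MTO1, which modifies mitochondrial tRNAs, fell in the early stage from 96.0 and 104.7 CPM to 44.7, 42.6 and 50.1 CPM (-1.13, FDR = 0.00113). The share of translation factors called was 11.1% (early) and 5.56% (late), below the 18% and 7.98% of all genes. Of 9 genes of mitochondrial transcription and replication, set beside 7.92% (early) and 3.42% (late) of all genes that rose, the transcription factor TFB2M (1.01, FDR = 0.000620) and TWNK rose in both stages. Of 14 regulators tested, the coactivator PPRC1 (0.98, FDR = 0.000694) and the host cell factor HCFC1 (0.51, FDR = 0.00315) rose in the early stage, and the stress factors ATF5 (-3.73, FDR = 0.000152) and DDIT3 (-1.94, FDR = 0.000169) fell. In the late stage PPRC1 (0.83, FDR = 0.00282) and PPARGC1B (0.75, FDR = 0.00484) rose and ATF5 and DDIT3 fell (-3.48 and -1.83), where 3.42% of all genes rose and 4.56% fell, against 7.92% and 10.1% in the early stage. The factors whose letters were searched had early stage values of 0.47 for NRF1 (FDR = 0.0199), 0.13 for GABPA, -0.06 for YY1, 0.23 for MYC (FDR = 0.0511) and -0.50 for MAX (FDR = 0.0197), none past the threshold, and the lists held no NF-Y gene.

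Values for cytosolic ribosomal protein genes and for nuclear genes of the respiratory chain are given beside those of the MRP genes, and no difference between the groups was tested. The 82 cytosolic genes had a median log2 fold change of 0.02 in the early and -0.04 in the late stage, with 2 and 1 genes higher and 2 and 1 lower (4.88% and 2.44% called, against 18% and 7.98% of all genes). The 77 respiratory chain genes had medians of 0.10 and 0.25, with 3 genes higher in each stage and 1 lower in the early stage (5.19% and 3.9% called). Between late and early stage their median was 0.17, against 0.06 for the MRP genes. In the plot of medians by line, the MRP genes were at 0.41 and the respiratory chain genes at 0.35 in the 200 nM line.

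**Figure D5:**
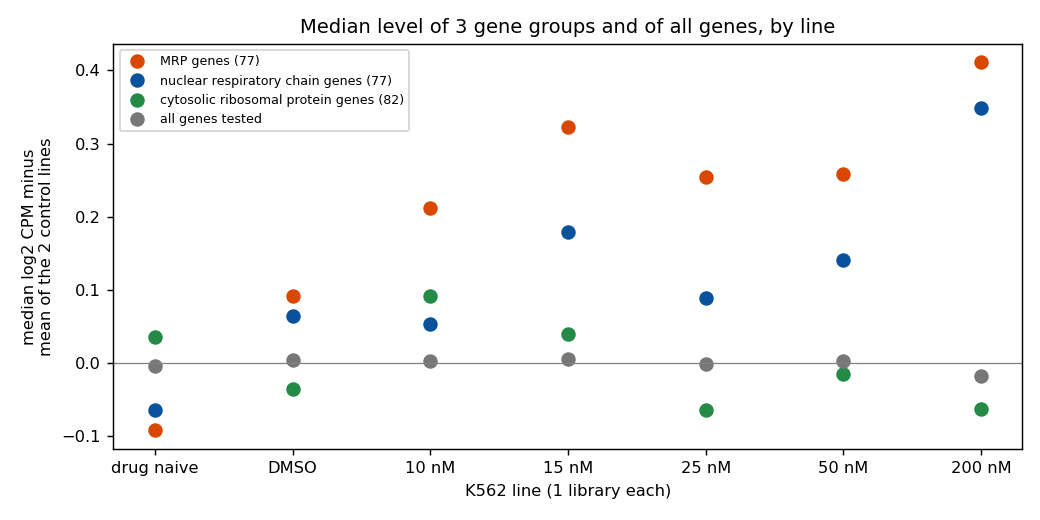
Median, over the genes of a group, of log2 CPM minus the mean of the 2 controls, in each line, for MRP genes, nuclear respiratory chain genes, cytosolic ribosomal protein genes and all genes tested. MRP genes lie lowest in the drug naive line (-0.09) and highest in the 200 nM line (0.41), while all genes stay between -0.02 and 0.01.

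Markers of cell types were examined beside these results. Of 18 markers of K562 and erythroid cells, 16 were tested and 6 rose in the early stage (LMO2, TFRC, HEMGN, HBG1, HBA1 and HBA2) and 2, LMO2 and TFRC, in the late stage (37.5% and 12.5%, where 7.92% and 3.42% of all genes rose). Their summed level was 4545 and 3994 CPM in the controls, 13477, 14986 and 11783 CPM in early stage lines and 7577 and 5200 CPM in late stage lines, and the most abundant was HBG2 or HBZ in each line, neither of which passed. The globin copies HBG1 and HBG2, and HBA1 and HBA2, can share reads. GATA1, which defines the lineage, was between 168.5 and 295.3 CPM in all lines (early stage log2 fold change -0.18, FDR = 0.283). AHSP, which was not among those tested, was lower in the DasR lines. It stood at 2.04 and 2.30 CPM in the controls, at 0 in the 15 nM line and at no more than 0.55 CPM in the other DasR lines. The summed markers of megakaryocytes were between 20.8 and 113.8 CPM, with GP1BB at 0 in every line and 1 of the 2 tested genes, ITGA2B, lower in the early stage. The other, VWF, was at 0.697 and 0.292 CPM in both controls, 37.7, 3.91 and 8.03 CPM in early stage lines and 14.1 and 6.68 CPM in late stage lines, and did not pass (log2 fold change 5.08, FDR = 0.0131, in the early stage). Lymphoid and monocytic markers summed to 265.7 and 254.8 CPM in the controls, 125.0, 34.9 and 161.2 CPM in early stage lines and 432.9 and 467.0 CPM in late stage lines, of which PTPRC or LYZ was the most abundant in each line. None of the 3 tested passed, and CD2 and MS4A1 had at most 3 counts in any library. Most erythroid markers thus moved with the early stage (15 of the 16 tested had a log2 fold change above 0), and their part in the values of the MRP genes was not tested. In bulk RNA of a line, a higher level in every cell and a larger share of cells with a high level cannot be told apart.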

How the data were processed

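RNA of 7 K562 lines was sequenced from libraries made with a directional kit and depleted of ribosomal and non-coding RNA, although the labels also name polyA RNA. Reads were mapped by the authors to hg19 using STAR, and raw counts were deposited for 25702 gene IDs together with gene lengths (submitters' processing notes name featureCounts; its strand setting is not given in the sources used here). From the tables of the authors' own comparisons (log2 fold change, mean level, p-value and FDR) only gene symbols, lengths and chromosomes were taken. A filter of 10 CPM in 2 or more libraries left 10452 genes, identical to those of the deposited tables, so that all 77 MRP genes were tested by construction. Counts were scaled by TMM and fitted with edgeR 4.0.16 (glmQLFit, glmQLFTest, R 4.3.3) over all 7 libraries, with Benjamini-Hochberg adjustment and an FDR threshold of 0.005. The biological coefficient of variation was 0.161, and counts of lines in a group differed by more than sampling noise (chi-square per degree of freedom 21.1 to 70.1). Because lines of a group stand in for replicates, p-values rest on the spread between these lines, which were grouped by likeness in the same data. Alternatives were other scalings, filters, tests (DESeq2 1.42.0, limma voom 3.58.1, edgeR's exact test), thresholds and leaving out each library. Removing a length trend was added after seeing the data.

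The members and lists were chosen with earlier results of these data known. Named are, per comparison with the controls, the 8 members with the largest changes in each direction among those called, for late against early the 4 with the smallest p in each direction, the 3 highest and 3 lowest per length, MRPS18A, MRPS18B, MRPS18C, MRPS30, MRPS36 and MRPL12, and list genes past the threshold. MRPL14 and MRPL36 complete the early stage calls.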

Additional observations from a re-analysis of the deposited data

How the results depend on the processing

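The direction of the median log2 fold change of the members against the controls held in every setting tried. The number of genes called did not. At an FDR under 0.005, DESeq2 called 23, 22 and 3 members (early against control, late against control, late against early) and edgeR's exact test 20, 19 and 1, where edgeR's quasi-likelihood test called 13, 5 and 0. Over all genes these tests called 3548, 2503 and 1135 (DESeq2) and 3204, 2126 and 955 (exact test), against 1881, 834 and 0. At an FDR of 0.05 the quasi-likelihood test called 35, 29 and 6 members (45.5%, 37.7% and 7.79%) and 4865, 3542 and 1328 of all genes (46.5%, 33.9% and 12.7%). Fitted to the 2 groups alone, 0 members and 257 of all genes were called in late against control, where without the drug naive line 30 and without the DMSO line 95 of all genes were. With no filter on low counts 295 genes, none of them members, were called between the stages. Leaving out 1 library gave 0 to 12 members in early against control and 0 to 4 in late against control, and 0 in late against early each time. The median was then 0.18 to 0.35 in the early stage, 0.21 to 0.46 in the late stage and -0.0572 to 0.12 between the stages, the lowest value without the 200 nM line. The cause of these differences was not tested.

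The late stage call of MRPL45 was also lost with a limit of 1 CPM (FDR = 0.00526) and with no filter (FDR = 0.00695), and the early stage call of MRPS26 with limma voom (FDR = 0.00508). Among named genes, 17 of the alternative values changed sign, each in a comparison in which that gene was not called. MRPL43 between the stages was 0.000561 with library totals only, 0.0254 with a limit of 1 CPM and 0.0359 with no filter. MRPS18A in the early stage was -0.0286 with the length trend removed. The others came from leaving out 1 library. In the early stage this gave -0.136 to 0.152 for MRPS18A and -0.117 to 0.0546 for MRPL17, and in the late stage -0.0288 to 0.201 for MRPL37 and -0.0881 to 0.331 for MRPL40. Between the stages it gave -0.0858 to 0.0753 for MRPL43, -0.137 to 0.234 for MRPL12, -0.321 to 0.0283 for MRPS12, -0.342 to 0.189 for MRPS26, -0.00355 to 0.266 for MRPS18A and -0.00427 to 0.366 for MRPS36. No paired analysis was possible, because each line had 1 library and the labels match no line of a group to a line of another group. No scaling moved the median of all genes by over 0.1 on the log2 scale.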

Other observations

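The 13 protein-coding genes of the mitochondrial genome, whose proteins the mitochondrial ribosome makes, had between 33 and 73 counts in all per library, so that their level could not be compared. This sum was 64 in the drug naive line, 36 in the DMSO line and 43 in the 25 nM line. Why it was so low was not tested.

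MRPL16, a large subunit protein with a bacterial homolog, was singled out after its values were seen. It stood at 139.9 CPM in the 10 nM line and at 56.5 to 91.7 CPM in the other 6, and its early stage change of 0.66 ± 0.29 on the log2 scale did not pass (FDR = 0.0955). MRPL53, among the members at the lowest CPM, was at 12.1 and 13.4 CPM in the controls and 7.80 to 9.84 CPM in the DasR lines (late stage log2 fold change -0.57 ± 0.19, FDR = 0.0555). Pseudogenes MRPL42P5 and MRPS18CP7 were counted as well, at no more than 4.27 and 2.83 CPM.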
